A study of Bos taurus with 21 samples.

Results

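RAB proteins are the largest branch of the RAS superfamily of small GTPases. Their genes were taken here as every symbol of the count files made of RAB, a number and, where present, a suffix letter, and proteins that only bind or regulate RABs were left out. The rule found 53 of the 13570 gene symbols. RAB7L1 and RAB39 are older symbols of RAB29 and RAB39A.

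The cells were the somatic cells of milk from 21 Holstein cows, 1 RNA-seq library per cow. The labels put 9 cows in the high milk yielding group (HY) and 12 in the low group (LY), with no treatment in either. HY cows were 41 to 268 days into lactation (median 168) and LY cows 52 to 270 days (median 211.5), and parities of 2 to 4 occurred in each. The milk yield value of the labels, which has no unit, was 181 to 468 for HY cows and -404 to 86.9 for LY cows.

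A RAB cycles between a GTP-bound form, which sits on a membrane and recruits effectors, and a GDP-bound form, which is extracted into the cytosol. Different RABs mark different compartments, from the endoplasmic reticulum and Golgi through early, recycling and late endosomes to secretory granules and phagosomes. Milk holds shed mammary epithelial cells, which secrete casein through the Golgi and lipid as droplets, together with leukocytes, which use RABs in phagocytosis and granule release.

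Marker RNA of both kinds of cell was counted in every library. Gene counts per cow ran from 7878557 to 28541904. The 4 casein genes, which mark secretory epithelium, took from 0.0876% (cow HY7) to 44.2% (cow HY8) of these counts, the HY median being 4.34% and the LY median 11.04%. All 10 epithelial markers, all 17 measured leukocyte genes, the 9 neutrophil, the 10 macrophage and the 8 T cell genes had a count in every cow. Levels are given as CPM, counts scaled to a common library size, after TMM normalisation, which adjusts libraries by the bulk of their genes. Cows HY8 and HY9 stood apart, with normalisation factors of 0.460 and 0.498 against 0.749 to 1.48 in the other cows, and with the 2 highest casein shares. In bulk RNA of this kind, fewer cells of a type and less RNA per cell cannot be told apart.

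The 53 RABs together took 0.175% to 0.552% of the gene counts of a cow, or 0.314% to 0.567% of the counts outside casein. All cows had a count for 41 of them, and 34 had at least 10 counts in every cow. Between 43 and 52 were counted in a single cow. RABs that were nearly absent numbered 4: RAB33A had no count in 18 cows, RAB9B in 19, RAB3B in 15 and RAB3C in 10. The share of RABs among the counts outside casein showed no relation to casein share that passed adjustment (by permutation, Pearson r = -0.29 with p = 0.211 and adjusted p = 0.558 over 21 relations, and Spearman rho = -0.37 with p = 0.103 and adjusted p = 0.528; r = -0.25 without cows HY7 and HY1, and -0.44 within the 16 cows of lower mapping rate described below). Single RABs varied more widely than their sum.

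**Figure D1:**
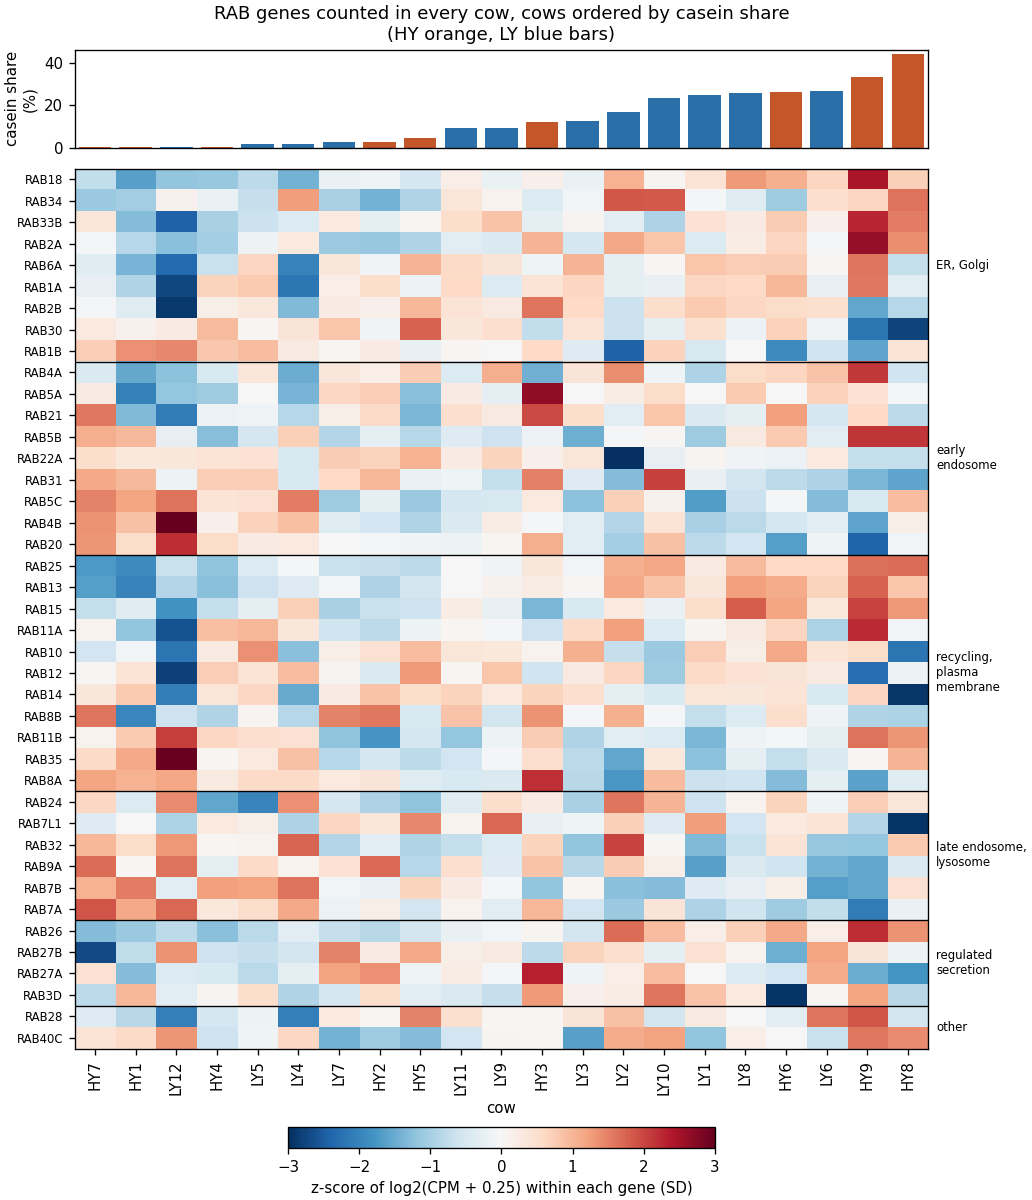
The 41 RABs counted in every cow (rows, grouped by the compartment each is known for) in the 21 cows (columns, ordered by casein share, which the bars above give in % of gene counts, HY orange and LY blue). Colour is the z-score of log2(CPM + 0.25) within each gene; RAB13, RAB25, RAB26 and RAB18 turn from blue to red from left to right, RAB7A and RAB7B the other way, and LY12 and HY9 hold many of the extreme values.

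The first question was which RABs moved with the epithelial content of the sample, measured as the log2 of casein share. Over all 12333 genes with a count, edgeR's quasi-likelihood test with Benjamini-Hochberg adjustment called 20.1% at an adjusted p under 0.05, 10.3% with a positive slope and 9.71% with a negative one. Of the 53 RABs, 16 were called (30.2%), 8 higher and 8 lower, and 21 had an unadjusted p under 0.05, as did 32% of all genes. Their median slope was 0.01 log2 units per doubling of casein share, against a median of -0.003 over all genes, so the calls lay on both sides of a median near 0. The called RABs with positive slopes were 4 of the 12 known for the endoplasmic reticulum and Golgi, 3 of the 11 for recycling and delivery to the plasma membrane, and 1 of the 8 for regulated secretion. None of the 9 early endosome and 9 late endosome, lysosome or phagosome RABs was called with a positive slope. With a negative slope, 3 of each of these endosomal groups were called, together with 1 recycling and 1 Golgi RAB.

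RAB13, which serves the recycling of tight junction proteins in epithelia, ranged over 0.490 to 62.5 CPM among HY cows (median 3.83) and 2.51 to 33.1 CPM among LY cows (median 8.34). Its lowest level was in cow HY1 and its highest in cow HY9, so the range within HY covered that of LY. It rose by 0.59 log2 units per doubling of casein share (SE 0.0666, adjusted p = 4.94e-07, edgeR).

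RAB25, an epithelial relative of RAB11 in the apical recycling endosome, ranged over 0.539 to 73.5 CPM among HY cows (median 3.47) and 3.59 to 38.3 CPM among LY cows (median 8.33). The 2 cows of highest casein share, HY9 and HY8, had 70.9 and 73.5 CPM, and the 2 of lowest share, HY7 and HY1, had 0.751 and 0.539 CPM. It rose by 0.60 log2 units per doubling (SE 0.0747, adjusted p = 2.19e-06).

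RAB26, known for the maturation of secretory granules, was the RAB with the steepest slope among those called, 0.70 log2 units per doubling (SE 0.108, adjusted p = 4.46e-05). It ranged over 0.500 to 94.1 CPM among HY cows (median 1.89) and 1.23 to 44.9 CPM among LY cows (median 3.38). The highest cow of each group, HY9 and LY2, stood well above the other cows, and below a casein share of 5% no cow passed 2.62 CPM.

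RAB18, which coats lipid droplets and contacts the endoplasmic reticulum, ranged over 30.5 to 542 CPM among HY cows (median 87.4) and 35.6 to 238 CPM among LY cows (median 93.3). The rise was 0.31 log2 units per doubling (SE 0.0493, adjusted p = 8.57e-05). RAB15, an endocytic recycling RAB, ranged over 3.17 to 43.0 CPM among HY cows (median 5.76) and 2.24 to 36.4 CPM among LY cows (median 9.51). Its slope was 0.26 (adjusted p = 0.00614), and cow HY9 again had the highest level of both genes.

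The other rising RABs had smaller slopes, and all 3 belong to the Golgi: RAB33B at 0.11 (adjusted p = 0.0317), which also acts in autophagosome formation, RAB2A at 0.10 (adjusted p = 0.0297), a RAB of the path between endoplasmic reticulum and Golgi, and RAB6A at 0.09 (adjusted p = 0.0479), of traffic within and back from the Golgi. These were close to the threshold. Without single cows RAB6A lost its call in 13 of 21 fits, RAB2A and RAB33B in 3 each, and the largest adjusted p of each came without cow LY12 (0.148, 0.0583 and 0.0883).

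**Figure D2:**
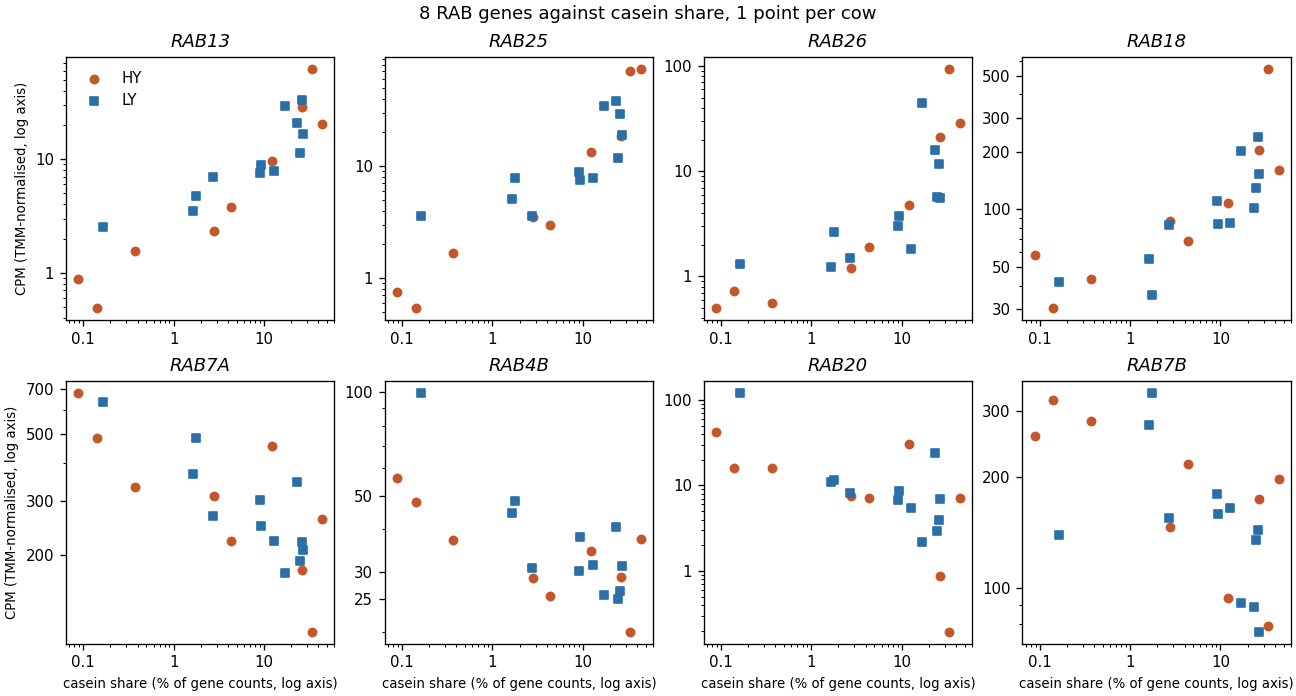
CPM (log axis) of 8 called RABs against casein share (% of gene counts, log axis), 1 point per cow, HY as orange circles and LY as blue squares. RAB13, RAB25, RAB26 and RAB18 in the upper panels rise with casein share to a top value in cow HY9 or HY8, and RAB7A, RAB4B, RAB20 and RAB7B in the lower panels fall, with cow LY12 on top for RAB4B and RAB20.

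Among the RABs that fell with casein share, RAB7A, the RAB of late endosomes and lysosomes, had the smallest p. It ranged over 112 to 682 CPM among HY cows (median 313) and 175 to 634 CPM among LY cows (median 259). The highest levels were in cows HY7 and LY12, of casein shares 0.0876% and 0.164%, and the lowest in cow HY9. It fell by 0.17 log2 units per doubling (SE 0.0341, adjusted p = 0.00073). This call was lost with epithelial markers in place of casein share.

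RAB20, which acts in phagosome maturation and on endosomes, had the steepest fall, -0.37 log2 units per doubling (SE 0.0851, adjusted p = 0.00361). It ranged over 0.196 to 41.5 CPM among HY cows (median 7.54) and 2.18 to 121 CPM among LY cows (median 7.52). The top value was that of cow LY12 and the bottom one that of cow HY9, with 1 count. Without cow LY12 the slope was -0.23 with an adjusted p of 0.103, so the call rested on that cow.

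RAB4B, of rapid recycling from early endosomes, ranged over 20.04 to 56.2 CPM among HY cows (median 34.4) and 24.9 to 99.9 CPM among LY cows (median 31.2). Its slope was -0.14 (SE 0.0303, adjusted p = 0.00253), which became -0.09 without cow LY12 (adjusted p = 0.0368) and missed the test within the 16 cows of lower mapping rate (-0.09, adjusted p = 0.0640). RAB7B, of traffic from late endosomes to the Golgi, ranged over 79.0 to 322 CPM among HY cows (median 197) and 76.2 to 337 CPM among LY cows (median 149). It had a slope of -0.15 (SE 0.0405, adjusted p = 0.0124).

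The remaining falls were small. RAB1B, of the first step from endoplasmic reticulum to Golgi, had a slope of -0.12 (adjusted p = 0.0158), RAB5C, an early endosome RAB, of -0.12 (adjusted p = 0.0257), RAB35, of recycling at the plasma membrane, of -0.10 (adjusted p = 0.0324), and RAB9A, of late endosome to Golgi transport, of -0.08 (adjusted p = 0.0498). RAB9A lost its call without single cows in 17 of 21 fits, RAB5C and RAB35 in 4 each and RAB1B in 1, and the largest adjusted p of each came without cow LY12 (0.173, 0.0810, 0.325 and 0.0611). The slope of RAB35 was then -0.05. RAB1A, the close relative of RAB1B, did not pass, with a slope of 0.06 (adjusted p = 0.208), nor did RAB5A at 0.06 (adjusted p = 0.151) or RAB5B at 0.01 (adjusted p = 0.847), and slopes of relatives were not tested against each other.

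Among the RABs named for their roles in secretion and recycling, 4 missed the test. RAB11A, the broadly expressed recycling endosome RAB, had a slope of 0.03 (adjusted p = 0.406), and the granule RABs RAB27A, RAB27B and RAB3D had slopes of 0.02, 0.04 and 0.02 (adjusted p = 0.789, 0.817 and 0.787). RAB11A was among the least variable RABs, at 93.9 to 178 CPM in HY and 72.0 to 147 CPM in LY.

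Marker genes of several cell types moved with casein share too. The 4 casein genes, which make up the share, and 7 of the 10 epithelial markers rose, while 6 of 17 leukocyte genes, 6 of 10 macrophage genes and 1 of 9 neutrophil genes fell and 0 of 8 T cell genes was called. The summed level of the epithelial markers ran from 34.2 to 4335 CPM in HY and from 166 to 2149 CPM in LY, and that of the macrophage markers from 2517 to 7790 CPM and from 2597 to 7625 CPM. The part of cell make-up in the RAB slopes was not tested beyond the fits with further terms below. When the leukocyte index, the mean log2(CPM + 0.25) of the 17 leukocyte genes, was added as a further term, 6 RABs were called on casein share, where 6.55% of all genes were: RAB13 (0.48), RAB25 (0.51), RAB26 (0.46), RAB18 (0.18) and RAB27A (0.13, adjusted p = 0.0446) with positive slopes and RAB7B (-0.19, adjusted p = 0.0342) with a negative one.

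By the mapping rates of the study, 16 cows formed a lower set and 5 a higher one (1 HY and 4 LY). Within the 16 cows of lower mapping rate, 7 RABs were called on casein share, where 10% of all genes were: RAB13, RAB25, RAB26, RAB18 and RAB15 with positive slopes and RAB7A and RAB7B with negative ones. The higher set, with 5 cows, was not fitted on its own. Cow LY12, which belongs to it, moved the count most, since 8 RABs were called without it, where 13.5% of all genes were. Without cows HY8 and HY9, 14 were called, where 21.3% of all genes were. With the mean log2 level of the epithelial markers in place of casein share, 10 were called, 7 higher and 3 lower, where 21.6% of all genes were. Of the RABs called on casein share, RAB13, RAB25, RAB26, RAB18, RAB15, RAB2A and RAB7B kept the call. RAB7A, RAB4B, RAB20, RAB1B, RAB5C, RAB35, RAB9A, RAB33B and RAB6A lost it.

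The second question was how the RABs ran with the leukocyte index, which ranged from 6.598 (cow HY9) to 8.94 (cow HY3). The index and log2 casein share were inversely related over the 21 cows (by permutation, Pearson r = -0.62 with p = 0.00259 and adjusted p = 0.0544, and Spearman rho = -0.75 with p = 0.00018 and adjusted p = 0.00378, over 21 relations). This r was -0.61 without cows HY7 and HY1 and -0.58 within the 16 cows of lower mapping rate. The comparisons therefore use the same cows and overlapping information, and their values are set side by side without a test of likeness.

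Over all genes, 25.8% were called with the leukocyte index, 12.7% higher and 13% lower. Of the 53 RABs, 16 were called (30.2%), 8 higher and 8 lower, and 20 had an unadjusted p under 0.05, as did 37.3% of all genes. The median slope was 0.04 log2 units per unit of the index, against 0.12 over all genes. The early endosome group gave 3 of 9 called RABs, all higher, and the late endosome group 2 of 9, both higher. The recycling group gave 1 higher and 4 lower of 11, the Golgi group 1 higher and 3 lower of 12, and regulated secretion 1 higher and 1 lower of 8.

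RAB20 had the steepest rise, 2.94 log2 units per unit of the index (SE 0.436, adjusted p = 4.66e-05). RAB8A, of polarised delivery to the plasma membrane, rose by 0.94 (SE 0.150, adjusted p = 9.17e-05). It ranged over 45.8 to 224 CPM among HY cows (median 100.3) and 43.2 to 146 CPM among LY cows (median 77.5), with its highest level in cow HY3, which also had the highest index.

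RAB7A rose by 0.997 log2 units (SE 0.187, adjusted p = 0.000431). RAB31, of transport between the Golgi and early endosomes, rose by 0.76 (SE 0.159, adjusted p = 0.00103), and ranged over 154 to 471 CPM among HY cows (median 357) and 171 to 571 CPM among LY cows (median 245). RAB31 and RAB8A had negative slopes on casein share that missed the test (-0.07, adjusted p = 0.210, and -0.11, adjusted p = 0.0582).

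RAB1B rose by 0.71 (adjusted p = 0.00600), RAB27A, which docks secretory granules in leukocytes, by 0.69 (adjusted p = 0.0114), RAB4B by 0.65 (adjusted p = 0.0124) and RAB9A by 0.45 (adjusted p = 0.0230). RAB1B, RAB4B and RAB9A each lost the call without cow HY9 (adjusted p = 0.0605, 0.0841 and 0.105). RAB27A kept it without any single cow (largest adjusted p = 0.0498) but lost it without cows HY8 and HY9 together (adjusted p = 0.0982).

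RAB15 had the smallest p of the falling RABs, with a slope of -1.85 (SE 0.235, adjusted p = 1.03e-05). RAB18 followed at -1.38 (SE 0.212, adjusted p = 6.66e-05) and RAB26 at -2.54 (SE 0.456, adjusted p = 0.000283). All 3 kept the call without any single cow.

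The other RABs with negative slopes were RAB33B at -0.68 (adjusted p = 0.00133), RAB13 at -1.84 (adjusted p = 0.00196), RAB25 at -1.75 (adjusted p = 0.00613), RAB2A at -0.52 (adjusted p = 0.0101) and RAB11A at -0.32 (adjusted p = 0.0433). RAB25 and RAB2A lost the call without cow HY9 (adjusted p = 0.0651 and 0.296), and RAB11A without single cows in 13 of 21 fits. RAB33B lost it without cows HY8 and HY9 together (adjusted p = 0.1585). RAB27B, RAB3D and RAB5C were not called, with slopes of -0.02, 0.10 and 0.33 (adjusted p = 0.982, 0.790 and 0.315). Without cow HY9, 10 RABs were called on the index, where 14.6% of all genes were, and without cows HY8 and HY9 together 12, where 13.8% of all genes were. Of the marker lists, 15 of the 17 leukocyte genes, which make up the index, 7 of 9 neutrophil, 4 of 10 macrophage and 5 of 8 T cell genes rose with it, and 3 of 4 casein and 5 of 10 epithelial genes fell.

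**Figure D3:**
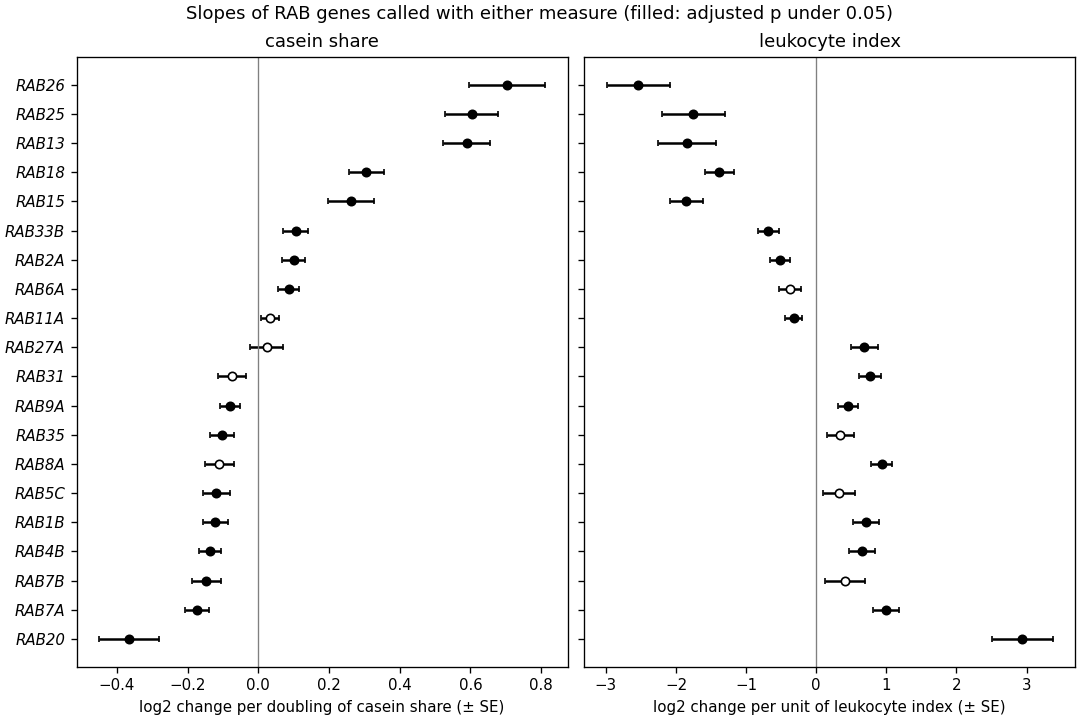
Slopes (± SE) of the 20 RABs called on casein share (left, log2 units per doubling) or on the leukocyte index (right, log2 units per unit of the index), sorted by the casein slope, with filled points for an adjusted p under 0.05. The RABs at the top have positive casein and negative leukocyte slopes, those at the bottom the reverse, and the left and right panels come from the same 21 cows.

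Set side by side, 7 RABs were called higher with casein share and lower with the leukocyte index: RAB13, RAB15, RAB18, RAB25, RAB26, RAB2A and RAB33B. The reverse was found for 5, namely RAB1B, RAB20, RAB4B, RAB7A and RAB9A. RAB6A, RAB5C, RAB35 and RAB7B were called on casein share alone, RAB8A, RAB31, RAB27A and RAB11A on the index alone, and 33 on neither. No RAB was called in the same direction on both. With log2 casein share as a further term, 9 of 53 RABs were called on the index, where 14.5% of all genes were: RAB20 (2.21), RAB8A (0.88), RAB7A (0.61), RAB31 (0.78) and RAB27A (1.04, adjusted p = 0.00145) higher, and RAB15 (-1.72), RAB18 (-0.92), RAB26 (-1.60) and RAB33B (-0.58) lower. RAB13 and RAB25 were not called in that fit (-0.81, adjusted p = 0.0853, and -0.67, adjusted p = 0.243), while on casein share beside the index they were. Within the 16 cows of lower mapping rate, 12 RABs were called on the index, where 18% of all genes were.

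The leukocytes of milk differ from cow to cow, so the RABs were also set against the neutrophil index minus the macrophage index, each a mean of log2 levels. The difference ran from -1.36 in cow HY5 to 3.27 in cow HY3. Of all genes 3.92% were called, 3.46% higher and 0.462% lower. Of the RABs 1 was called (1.89%), and 9 had an unadjusted p under 0.05, as did 17.4% of all genes.

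RAB27A was the called gene. It ranged over 30.1 to 150 CPM among HY cows (median 50.5) and 44.0 to 96.3 CPM among LY cows (median 59.6), with its top value in cow HY3. It rose by 0.36 log2 units per unit of the difference (SE 0.0821, adjusted p = 0.0112, edgeR). Without cow HY3 the slope was 0.30 with an adjusted p of 0.187, so the call rested on that cow.

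RAB5A, of early endosome fusion, and RAB8A missed the test with slopes of 0.18 and 0.26 (adjusted p = 0.130 and 0.147). RAB27B had a slope of -0.16 (adjusted p = 0.794), RAB3D of 0.12 (adjusted p = 0.576) and RAB7A of 0.22 (adjusted p = 0.383). RAB5C stood at 0.13, RAB18 at -0.14, RAB11A at -0.07 and RAB25 at 0.02 (adjusted p = 0.637, 0.801, 0.665 and 0.990). RAB27A and RAB27B are close relatives that both dock granules, and their slopes were not tested against each other. Of the markers behind the index, 5 of 9 neutrophil genes rose and 4 of 10 macrophage genes fell, as their choice implies, and 0 of 8 T cell genes was called.

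**Figure D4:**
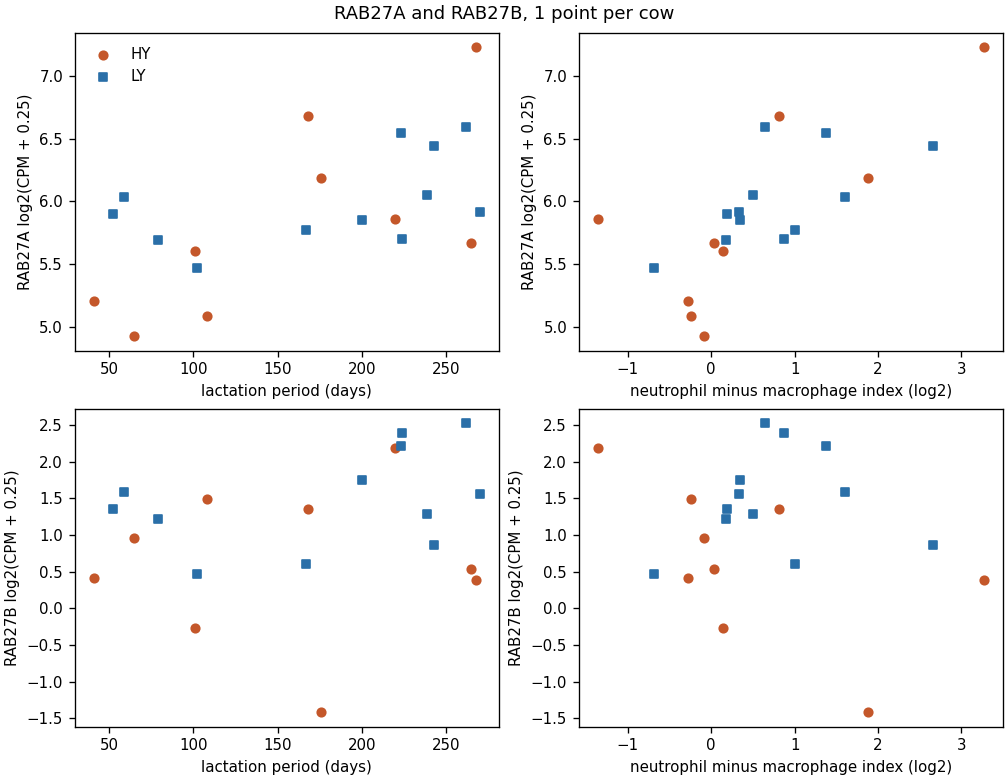
RAB27A (upper) and RAB27B (lower) as log2(CPM + 0.25) against lactation period in days (left) and the neutrophil minus macrophage index in log2 units (right), 1 point per cow, HY as orange circles and LY as blue squares. RAB27A has its top value in cow HY3, at 268 days and an index difference of 3.27, and RAB27B has its lowest in cow HY7.

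Lactation period was tested per 100 days. Of all genes 0.0243% were called (3 genes, all lower), and of the RABs 0, while 22.3% of all genes and 6 RABs had an unadjusted p under 0.05. The smallest p was that of RAB27A, with a slope of 0.43 log2 units per 100 days (SE 0.132, unadjusted p = 0.00332, adjusted p = 0.0854, edgeR). RAB15 followed at -0.78 (SE 0.262, adjusted p = 0.0998) and then RAB3C, a granule RAB with at most 11 counts in a cow, at 1.51 (adjusted p = 0.101).

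DESeq2 on the same counts called 7.46% of all genes and 3 RABs: RAB27A higher (0.46, adjusted p = 0.0276), RAB15 lower (-0.78, adjusted p = 0.0360) and RAB26 lower. The RABs named for their roles did not pass in edgeR. RAB18 had a slope of -0.50 (adjusted p = 0.249), RAB25 of -0.79 (adjusted p = 0.255), RAB27B of 0.39 (adjusted p = 0.407) and RAB5C of -0.19 (adjusted p = 0.500). Those of RAB11A, RAB7A and RAB3D were -0.10, 0.15 and 0.10 (adjusted p = 0.536, 0.653 and 0.710). The leukocyte index and lactation period were weakly related over the cows at most (by permutation, Pearson r = 0.44 with p = 0.0460 and adjusted p = 0.242, and Spearman rho = 0.31 with p = 0.166 and adjusted p = 0.542, over 21 relations). This r was 0.34 without cows HY9 and HY8 and 0.47 within the 16 cows of lower mapping rate. On lactation period, 5 of 9 neutrophil markers had an unadjusted p under 0.05, as did 22.3% of all genes. The number was 3 of 17 for the leukocyte genes, 0 of 10 for macrophage and 0 of 8 for T cell genes. No gene of these lists was called after adjustment.

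The study's own trait was milk yield, which was regressed on the log2 level of each gene as its authors did. The regression called 0% of all genes and 0 RABs after adjustment. At an unadjusted p under 0.05 it gave 2.49% of all genes and 0 RABs. Huber robust regression and the regression with parity and lactation period as further terms also called 0 RABs and 0% of all genes. With those further terms, 1 RAB and 371 genes had an unadjusted p under 0.05. On the counts, edgeR called 0 RABs and 0.105% of all genes (13 genes).

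The RABs of smallest p were RAB13, at -54.1 milk yield units per log2 unit of expression (SE 33.5, unadjusted p = 0.122), RAB34, a Golgi RAB also placed in macropinocytosis, at -74.1 (SE 47.3, p = 0.134), and RAB22A, of early endosomes, at 126 (SE 80.5, p = 0.134), all with an adjusted p of 0.9999 by ordinary regression with Benjamini-Hochberg adjustment. Without cow LY2, which had the lowest level of RAB22A, its slope was 29.9. RAB25 had a slope of -42.8 (SE 31.6), RAB27B of -80.7 (SE 62.0), RAB7A of 62.5 (SE 91.3), RAB5C of 67.1 (SE 99.5) and RAB18 of -37.6 (SE 59.0). For RAB27A, RAB11A and RAB3D the slopes were -8.66, -15.1 and -2.62, each far within its SE of 109, 226 and 111, and each changed sign when 1 cow was left out.

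HY and LY cows were compared directly as well. The comparison called 0% of all genes and 0 RABs with edgeR, and at an unadjusted p under 0.05 it gave 4.7% of all genes and 0 RABs. DESeq2 called 0 RABs and 0.00811% of all genes (1 gene), and 1 RAB and 367 genes had an unadjusted p under 0.05. The HY and LY values overlapped for all 53 RABs, and over all genes 0% had groups that did not overlap.

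RAB5B, an early endosome RAB, came nearest. It ranged over 133 to 266 CPM among HY cows (median 202) and 128 to 198 CPM among LY cows (median 160), and HY was higher by 0.29 log2 units (SE 0.156, unadjusted p = 0.0770, adjusted p = 0.999, edgeR). Cows HY9 and HY8 had the 2 highest levels of the 21 cows, 265.6 and 265.3 CPM.

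RAB27B ranged over 0.125 to 4.30 CPM among HY cows (median 1.20) and 1.14 to 5.48 CPM among LY cows (median 2.50), a difference of -0.76 (SE 0.439, unadjusted p = 0.0950, adjusted p = 0.999). RAB9B, a late endosome RAB, had no count in any HY cow and at most 2 in an LY cow (unadjusted p = 0.0960), too few for a fold.

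The differences of RAB18, RAB25 and RAB5C were 0.39 (SE 0.429), 0.49 (SE 0.707) and 0.22 (SE 0.264), and those of RAB7A, RAB11A, RAB27A and RAB3D 0.15 (SE 0.288), 0.06 (SE 0.155), -0.02 (SE 0.253) and 0.003 (SE 0.251). Several of these turned on 1 cow: the difference became -0.22 for RAB18 and -0.04 for RAB11A without cow HY9, -0.06 for RAB25 without cow HY8, -0.05 for RAB7A without cow HY7 and 0.07 for RAB27A without cow HY8. That of RAB3D also changed sign, to -0.12 without cow HY3, and that of RAB5C was 0.11 without cow HY7. Although their differences were positive, HY had the lower median CPM for RAB25 (3.47 against 8.33) and RAB18 (87.4 against 93.3). The same held for RAB11A (115 against 119) and RAB3D (15.1 against 15.2). The medians of RAB5C, RAB7A and RAB27A had the direction of the difference. For RAB13, RAB25 and RAB26 the SE was 0.663, 0.707 and 0.848 log2 units, so a doubling between the groups was not detectable at this spread.

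**Figure D5:**
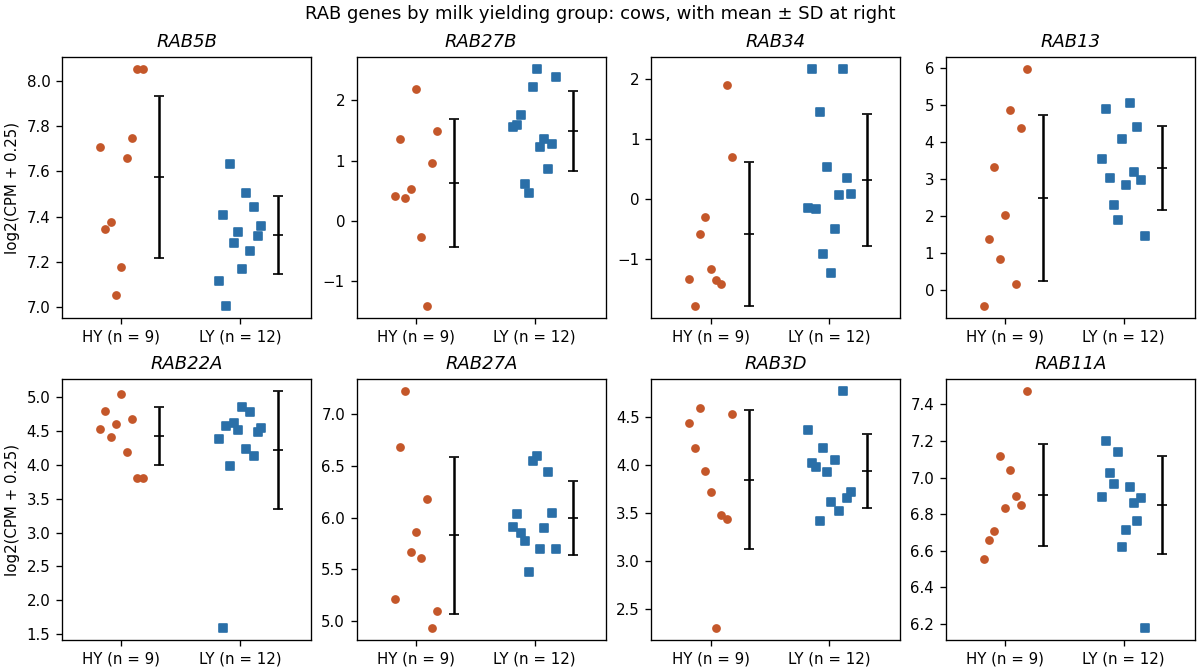
Levels of 8 RABs as log2(CPM + 0.25) in the 9 HY cows (orange circles) and 12 LY cows (blue squares), 1 point per cow spread sideways, with the mean ± SD at the right of each group. The groups overlap for all 8, and for each of the 8 the SD within HY is larger than the gap between the means.

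RABs need enzymes that load, extract and switch them, and 72 of 105 listed regulators and effectors were measured: 7 of prenylation and extraction, 19 exchange factors, 25 GTPase activating proteins and 21 effectors. On casein share 4 were called higher and 12 lower (22.2% against 20.1% of all genes), and 7 of the 12 lower were GTPase activating proteins. TBC1D24 (0.19, adjusted p = 0.00398), CCZ1 (0.12, adjusted p = 0.0109), part of the exchange factor for RAB7, and EXOC6 (0.09, adjusted p = 0.0392), a subunit of the exocyst, rose. TBC1D22A (-0.17, adjusted p = 0.000552), TBC1D1 (-0.14, adjusted p = 0.000652) and HPS4 (-0.14, adjusted p = 0.0013), of the exchange factor for RAB32, fell.

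On the leukocyte index 12 regulators were called higher and 4 lower (22.2% against 25.8%). RILPL2 (1.76, adjusted p = 0.00014), MICAL1 (1.01, adjusted p = 0.000352) and TBC1D14 (0.76, adjusted p = 0.0021) had the smallest p among those that rose, the first 2 being effectors. BICD2 (-0.83, adjusted p = 0.000122), a dynein adaptor that binds RAB6, RABGGTB (-0.66, adjusted p = 0.00117), the catalytic subunit that prenylates RABs, and TBC1D24 (-1.02, adjusted p = 0.00121) fell. On the neutrophil minus macrophage index 4 rose and 0 fell (5.56% against 3.92%), those of smallest p being TBC1D14 (0.41, adjusted p = 0.00286), RILPL2 (0.67, adjusted p = 0.0141) and TBC1D7 (0.47, adjusted p = 0.0299). On lactation period, milk yield and between HY and LY, 0 were called. Of the 72 regulators, 15, 0 and 2 had an unadjusted p under 0.05 in these comparisons. The shares of all genes that did so were 22.3%, 2.49% and 4.7%, in that order.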

How the data were processed

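RNA from milk somatic cells of 21 Holstein cows was sequenced by the authors. Per the labels and the study's methods, reads were trimmed with Trimmomatic, mapped to bosTau7 with Bowtie2 within TopHat2, handled with SAMtools and counted per gene symbol with HTSeq, with versions not given in the sources used here. The authors deposited raw counts, 1 file per cow. The 5 HTSeq summary entries and 1 unnamed entry (0.036% to 0.151% of gene counts) were left out. How HTSeq treated strand and reads shared by paralogues is not given in the sources used here.

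Counts were analysed in R 4.3.3 with edgeR 4.0.16 (TMM, quasi-likelihood test, Benjamini-Hochberg adjustment over 12333 genes, all 21 cows in each fit). The SE of a slope is its size over the root of F. Milk yield was regressed on log2(CPM + 0.25) by ordinary least squares. DESeq2 1.42.0 and Huber regression in MASS (k = 1.345) were alternatives, as were DESeq2 size factors, count filters, a pseudocount of 1, further terms, the 16 cows of lower mapping rate and leaving out each cow. Relations among 7 cow measures used 100000 permutations (Python 3.11.15, SciPy 1.17.1, two-sided). All tests were two-sided. Only the main edgeR fits and the ordinary regression were tried on simulated data, with less random variation among cows than was observed. The other tests were not tried in this way. Cows are separate animals, and p-values measure the spread among them. No 2 libraries agreed within sampling noise (lowest chi-square per degree of freedom 37.9).

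The members, roles and marker lists were chosen with earlier results of these data known. Named were RABs with an adjusted p under 0.05 (up to 10 per direction), otherwise the 3 of smallest p, plus RAB27A, RAB27B, RAB3D, RAB25, RAB11A, RAB7A, RAB5C and RAB18 for their roles, and the 3 regulators of smallest adjusted p per direction. Other genes were named after their values were seen. Levels were not compared between genes, and no coordinates are given, since the annotation table used for names (ARS-UCD2.0) is of another build.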

Additional observations from a re-analysis of the deposited data

Results flagged for a closer look

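In the HY group, the 28 named RABs were searched for a cow far from the others (Dixon's ratio above its critical value at 95%), and 2 were found, where chance gives about 1 in 20. RAB9B, with no count in any HY cow, has no such ratio and could not be flagged. RAB3C was highest in cow HY2, at -0.65 on the log2(CPM + 0.25) scale against -1.36 in the next cow, a gap of 0.522 of the range, on 9 counts. Its median level among HY cows was 0 CPM, so most of its values lay at the floor of the scale. The rate of 1 in 20 does not hold for such values. RAB3D, a granule RAB, was lowest in cow HY6, at 2.30 against 3.44 in the next cow, a gap of 0.498 of the range. The LY group, with 12 cows, was not searched. The difference between HY and LY in the slope on lactation period was tested as an interaction with edgeR's quasi-likelihood test, which called 0 of 12333 genes and 0 RABs, with 322 genes and 0 RABs at an unadjusted p under 0.05.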

How the results depend on the processing

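The number of RABs called on casein share, 16, fell to 7 in the 16 cows of lower mapping rate and 9 with casein percent without log2. It was 10 with epithelial markers in place of casein and 6 with the leukocyte index as a further term. Over all genes, 20.1% were called in the main fit and 10%, 17.4%, 21.6% and 6.55% in these fits, in that order. Without single cows the number ran from 8 (without cow LY12, 13.5% of all genes) to 17 (without cow HY3, 21.4%). On the leukocyte index, 16 (where 25.8% of all genes were called) became 9 with log2 casein share as a further term (14.5%). Without single cows the number ran from 10 (without cow HY9, 14.6%) to 18 (without cow HY8, 23%). On the neutrophil minus macrophage index, 1 became 2 without cows HY8 and HY9, 4 with log2 casein share as a further term, 9 with the neutrophil index alone and 7 with the macrophage index alone, and ran from 0 to 2 without single cows. On lactation period DESeq2 called 3 (7.46% of all genes) where edgeR called 0 (0.0243%). Leaving out single cows gave 0 to 0, as it did for milk yield and HY against LY. Of 2506 values of single RABs under an alternative, 2364 kept their side of the threshold, 130 lost a call, 11 gained one, and 99 uncalled values changed sign. RAB18 reversed, from -0.14 to 1.21 with the macrophage index alone (sign turned). The leukocyte index as a further term, the single indices and the joint removal of HY8 and HY9 were chosen after seeing the data. The causes were not tested. No paired analysis was made, since each library came from a separate cow and the labels pair no HY cow with an LY cow. RABs with few counts, such as RAB33A, RAB9B, RAB3B and RAB3C, are limited by depth, and none of their slopes was called over all 21 cows.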
